A study of Rattus norvegicus with 4 samples.

Results

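The regulators of G protein signalling (RGS) are a protein family that shares a domain for switching off G proteins. A set of 10 RGS genes was read in cultured rat cortical neurons given topotecan or, as control, DMSO: Rgs2, Rgs3, Rgs4, Rgs6, Rgs7, Rgs8, Rgs10, Rgs12, Rgs13 and Rgs17. Members were taken by gene symbol, and each matched 1 Ensembl identifier of the 21648 in the deposited count table. The set was chosen by the topotecan against DMSO fold change of Rgs13, which stands among the largest rises in these libraries, ranking at position 22 of 12162 tested genes by fold change. The topotecan against DMSO values of the members are therefore a description, and no p-value is printed for them. Calls of members as higher or lower apply the threshold of the whole table, given below, and are a description as well. All 10 members passed the filter on low counts.

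A receptor of the heptahelical kind activates a G protein by loading its alpha subunit with GTP, and the alpha subunit and the freed beta-gamma pair then act on enzymes and ion channels. RGS proteins speed up the hydrolysis of that GTP and so shorten the signal. The R4 subfamily (here Rgs2, Rgs3, Rgs4, Rgs8 and Rgs13) consists mostly of small proteins with little beyond the RGS domain. The R7 subfamily (Rgs6, Rgs7) forms obligate dimers with the beta subunit encoded by Gnb5 and is set on membranes by anchor proteins. The R12 subfamily (Rgs10, Rgs12) and the RZ subfamily (Rgs17) act on alpha subunits of the Gi class, which carry the signals of inhibitory receptors for transmitters and peptides in cortical neurons.

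The topotecan group and the DMSO group held 2 libraries each, of total RNA from E18 (embryonic day 18) rat cortical neurons sold by BrainBits. Topotecan (TOPO in the labels) blocks topoisomerase I, and the stated purpose of the treatment was less output from long genes. Neurons of both groups started in STEMdiff Neural Induction Medium and, from 24 hours on, grew in BrainPhys with SM1 supplement. The sources used here give no dose and no length of exposure. They do not say that replicates were separate cultures, so p-values measure only the spread between these libraries, which may be technical.

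Gene counts summed to 31181382 and 25459488 for replicates 1 and 2 in topotecan and to 27347410 and 22957786 in DMSO. A gene was called when its Benjamini-Hochberg adjusted p from edgeR's quasi-likelihood test was under 0.05. Of all genes tested, 16.2% were higher and 23.5% were lower in topotecan. The higher genes numbered 1970, but 1208 without topotecan replicate 1 and 1260 without topotecan replicate 2. Lower genes made up 59.2% of all calls, and 78.3% when libraries were scaled to short pan-neuronal genes, a scaling that moved the median over all genes on the log2 scale to -0.12, where TMM scaling gave -0.01. With TMM scaling, 7 of the 19 tested pan-neuronal genes were higher and 2 lower, with a median log2 fold change of 0.10. In spite of the name, 1 of them spans 100 kb or more. Levels are counts per 1000000 library counts after TMM scaling (CPM), a unit that takes no account of transcript length, so levels are compared between libraries and not between genes. In bulk RNA, fewer cells of a type and less RNA per cell cannot be told apart. All 10 astrocyte markers and all 10 oligodendrocyte lineage markers of the lists used here were lower in topotecan, with summed levels of 114 and 126 CPM (astrocyte) and 136 and 123 CPM (oligodendrocyte) in topotecan, against 3890 and 3959 CPM and 4006 and 4306 CPM in DMSO. Of 9 glutamatergic neuron markers 5 were higher and 1 was lower, and their summed level was 1187 and 1192 CPM in topotecan and 674 and 686 CPM in DMSO. Neurod6 was the most abundant of them. The largest count of a single marker was 25421 and 20912 in topotecan and 9367 and 8567 in DMSO, so this sum leans on 1 gene. Rgs genes are also expressed in glia, and the part of these cell type differences in the RGS values was not tested.

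The promoter windows of 4 members are shown because they set the member with the largest change beside its neighbour on the chromosome (Rgs13 and Rgs2) and beside a pair that was lower in topotecan (Rgs4 and Rgs7). They come from RefSeq on the assembly GRCr8, run 5′ to 3′ in the sense of the gene and cover 250 bases before to 50 bases after the annotated start. Capitals mark matches, on either strand, to one of 5 short motifs. The core of the cAMP response element was searched as TGACG, letters that also lie inside the full element TGACGTCA. The GC box was searched as GGGCGG and the TATA box as TATAAA. The other motifs were the CCAAT box, searched by its name, and the E box, searched as CACGTG.
Rgs13, chr13:58505873-58506172, minus strand: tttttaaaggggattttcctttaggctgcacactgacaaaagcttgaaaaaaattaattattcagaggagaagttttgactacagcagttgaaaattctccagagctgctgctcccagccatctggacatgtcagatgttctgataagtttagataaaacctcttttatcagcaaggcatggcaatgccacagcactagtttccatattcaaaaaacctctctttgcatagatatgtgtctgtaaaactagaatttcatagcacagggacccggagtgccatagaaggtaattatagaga
Rgs2, chr13:58352617-58352916, minus strand: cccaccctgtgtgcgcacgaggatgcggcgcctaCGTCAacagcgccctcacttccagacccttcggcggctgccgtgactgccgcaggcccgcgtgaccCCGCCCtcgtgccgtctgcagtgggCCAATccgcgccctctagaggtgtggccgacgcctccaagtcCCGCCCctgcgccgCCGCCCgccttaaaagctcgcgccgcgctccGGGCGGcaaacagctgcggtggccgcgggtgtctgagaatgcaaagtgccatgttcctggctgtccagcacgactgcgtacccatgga
Rgs4, chr13:84475835-84476134, minus strand: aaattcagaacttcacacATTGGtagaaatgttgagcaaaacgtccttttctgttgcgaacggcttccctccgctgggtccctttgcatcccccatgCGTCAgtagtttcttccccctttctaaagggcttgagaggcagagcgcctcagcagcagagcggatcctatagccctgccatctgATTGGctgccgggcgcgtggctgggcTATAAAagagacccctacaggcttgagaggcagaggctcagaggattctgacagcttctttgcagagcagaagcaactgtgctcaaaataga
Rgs7, chr13:89941001-89941300, minus strand: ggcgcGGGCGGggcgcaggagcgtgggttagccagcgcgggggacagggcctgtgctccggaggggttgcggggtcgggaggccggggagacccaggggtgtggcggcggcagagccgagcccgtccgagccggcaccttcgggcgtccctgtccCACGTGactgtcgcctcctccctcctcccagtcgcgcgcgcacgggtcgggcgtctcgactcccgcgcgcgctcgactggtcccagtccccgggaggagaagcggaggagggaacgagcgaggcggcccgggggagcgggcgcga

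The windows differed in base composition. The Rgs13 window held 1 CpG dinucleotide at a GC content of 38.7%, and 5.47% of the 33469 promoter windows of the same length held fewer CpGs. The Rgs2 window held 35 CpGs at 69.7% GC and the Rgs7 window 43 at 77.3%, against a median of 7 CpGs and 51.7% GC over all windows. Rgs4 lay near the middle, with 10 CpGs and 52.7% GC. Of the windows not printed, that of Rgs10 held 34 CpGs, Rgs17 30, Rgs6 21, Rgs12 16 and Rgs3 and Rgs8 6 each. The 6 members that were higher in topotecan thus held between 1 and 35 CpGs and the 3 lower ones between 10 and 43, ranges that overlapped. No match to these motifs occurred in the Rgs13 or the Rgs6 window. A GC box occurred in 6 of the 10 member windows (33.1% of all windows hold one), a CCAAT box in 3 (37.5%) and the core of the cAMP response element in 3, those of Rgs2, Rgs3 and Rgs4 (21.2%). The TATA letters stood in the windows of Rgs4, at position -42 from the start, and Rgs3 (14.2% of all windows), and the E box in that of Rgs7 (6.42%). The full cAMP response element was in none of the member windows and in 1.83% of all. These are matches of letters and not mapped binding sites.

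In the whole table's fit 6 members were higher in topotecan (Rgs2, Rgs3, Rgs8, Rgs10, Rgs13 and Rgs17), 3 were lower (Rgs4, Rgs6 and Rgs7) and Rgs12 did not pass, where 16.2% and 23.5% of all genes were higher and lower. The contrast chose the set, so nothing is read from these counts. The median log2 fold change of the 10 members was 0.43, against -0.01 over all genes tested. CPM of the groups did not overlap for any of the 10 members, as for 70.6% of all genes. Scaled to the short pan-neuronal genes, all 10 kept their sign, but Rgs3, Rgs8 and Rgs17 no longer passed.

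**Figure D1:**
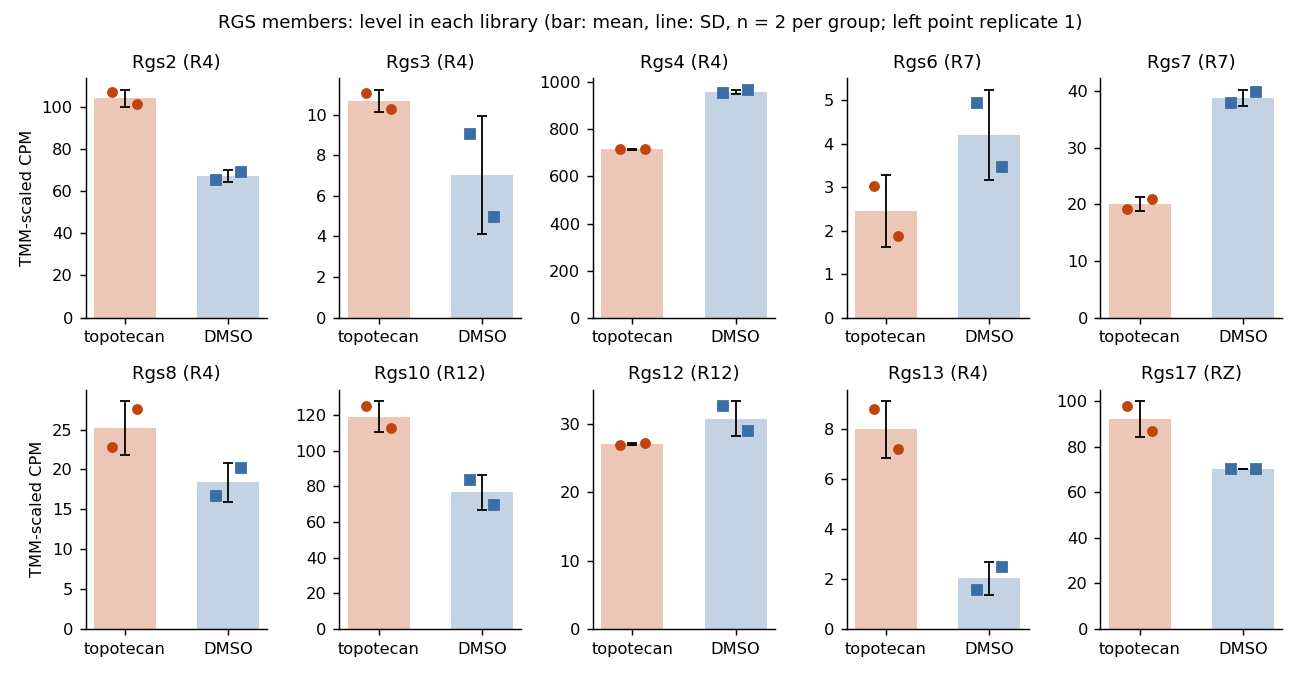
TMM-scaled CPM of the 10 RGS members in the topotecan libraries (orange circles, left) and the DMSO libraries (blue squares, right), on axes that start at 0. Bars are means and lines SDs over n = 2. Rgs13 stood at 8.78 and 7.18 CPM in topotecan and at 1.56 and 2.48 CPM in DMSO, and the wide DMSO spread of Rgs3 (9.06 and 4.97 CPM) is visible.

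Among the R4 genes, 4 members were higher in topotecan and Rgs4 was lower. Rgs13 (ENSRNOG00000003888), a small R4 protein best known from B cells and mast cells, had 269 and 181 counts in the topotecan libraries and 43 and 58 counts in the DMSO libraries. That is 8.78 and 7.18 CPM in topotecan and 1.56 and 2.48 CPM in DMSO, so each topotecan library lay well above each DMSO library. The means were 7.98 ± 1.13 CPM in topotecan and 2.02 ± 0.654 CPM in DMSO (SD, n = 2 each). The log2 fold change was 2.0 (SE 0.23), a level 4.0 times that in DMSO. Over the alternatives it ran between 1.70, without DMSO replicate 1, and 2.36, without DMSO replicate 2. The B cell markers numbered 7, and none had more than 1 count in any library. Of the 8 mast cell markers 7 had fewer than 20 counts in every library, with Fcer1a, Cpa3 and Cma1 at 0 throughout. The remaining one, the receptor gene Kit, had log2 fold change 0.06 and did not pass.

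Rgs2 (ENSRNOG00000003687), which acts with preference on the alpha subunits of the Gq class, had 107 and 101 CPM in topotecan and 65.3 and 69.2 CPM in DMSO. Mean levels were 104 ± 3.96 CPM in topotecan and 67.3 ± 2.71 CPM in DMSO (SD, n = 2 each). The log2 fold change was 0.63 (SE 0.09), a level 1.55 times that in DMSO, and both topotecan libraries lay above both DMSO libraries by more than the spread within either group. Rgs8 (ENSRNOG00000002369), a regulator of Gi and Go signals that speeds the gating of potassium channels opened by G proteins, had 22.8 and 27.6 CPM in topotecan and 16.6 and 20.1 CPM in DMSO. The gap between the groups was narrower than the spread within them, and the log2 fold change was 0.45 (SE 0.14), with means of 25.2 ± 3.39 CPM in topotecan and 18.4 ± 2.49 CPM in DMSO. It was 0.32 without topotecan replicate 2 and 0.33 without DMSO replicate 1, and passed in neither.

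Rgs3 (ENSRNOG00000024501), which acts on alpha subunits of the Gi and Gq classes, had 11.1 and 10.3 CPM in topotecan and 9.06 and 4.97 CPM in DMSO. The topotecan libraries agreed closely while the DMSO libraries differed by a factor of 1.82, the widest gap between replicates of a group among the 10 members. Means of 10.7 ± 0.558 CPM in topotecan and 7.02 ± 2.90 CPM in DMSO (SD, n = 2 each) show that uneven spread. The log2 fold change of 0.59 (SE 0.22) rested on DMSO replicate 2. Without that library it was 0.24 and did not pass, and without DMSO replicate 1 it was 1.11. It did not pass with DESeq2, with total counts or without topotecan replicate 1 either.

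Rgs4 (ENSRNOG00000002773), a regulator of Gi, Go and Gq signals that is prominent in cortical neurons, had 717 and 715 CPM in topotecan and 955 and 966 CPM in DMSO. Replicates were almost equal within each group, and the mean level in topotecan was 0.745 times that in DMSO (log2 fold change -0.42, SE 0.07). The alternatives gave values between -0.54 and -0.39. It was the single R4 member below 0 on the log2 scale.

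Both R7 members were lower in topotecan. Rgs7 (ENSRNOG00000021984), the R7 protein that turns off Go signals in brain together with the Gnb5 product, had 19.2 and 20.9 CPM in topotecan and 37.8 and 39.8 CPM in DMSO. Each DMSO library lay far above each topotecan library, and the log2 fold change was -0.95 (SE 0.12). Its mean was 20.1 ± 1.24 CPM in topotecan and 38.8 ± 1.39 CPM in DMSO (SD, n = 2 each), a level 0.517 times that in DMSO, and the alternatives ran between -1.07 and -0.88. Rgs6 (ENSRNOG00000008082), its relative that also dampens muscarinic signals in the heart, had 3.03 and 1.86 CPM in topotecan and 4.93 and 3.47 CPM in DMSO. Replicates of Rgs6 differed nearly as much as the groups, and its log2 fold change of -0.77 (SE 0.26) went to -0.47 without topotecan replicate 2 and to -0.47 without DMSO replicate 1, passing in neither. It was -1.17 without topotecan replicate 1, and with DESeq2 it was -0.76 and did not pass.

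The R12 members differed from each other. Rgs10 (ENSRNOG00000042592), a small protein of neurons and microglia, had 125 and 113 CPM in topotecan and 83.4 and 69.6 CPM in DMSO. All values in topotecan lay above those in DMSO, and the log2 fold change was 0.64 (SE 0.10). Mean levels stood at 119 ± 8.78 CPM in topotecan and 76.5 ± 9.73 CPM in DMSO (SD, n = 2 each). Microglia markers stayed under 20 counts in all libraries (9 of 9 present in the table). Their summed level was 0.261 and 0.595 CPM in topotecan and 0.435 and 0.813 CPM in DMSO, with Tmem119, Aif1, C1qa, C1qb and Cx3cr1 at 0 throughout. Rgs12 (ENSRNOG00000030568), a large scaffold protein with further binding domains, had 27.0 and 27.2 CPM in topotecan and 32.6 and 29.0 CPM in DMSO. The groups did not overlap, but the difference was small (log2 fold change -0.19, SE 0.12). The 13 alternatives ran between -0.29 and -0.09.

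Rgs17 (ENSRNOG00000018690), the RZ member, acts on Gz and Gi alpha subunits and had 97.8 and 86.8 CPM in topotecan and 70.1 CPM in each DMSO library. The DMSO libraries were equal to the precision printed while the topotecan libraries differed, and the log2 fold change was 0.40 (SE 0.09), a level 1.32 times that in DMSO. Without topotecan replicate 1 it was 0.31 and did not pass.

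**Figure D2:**
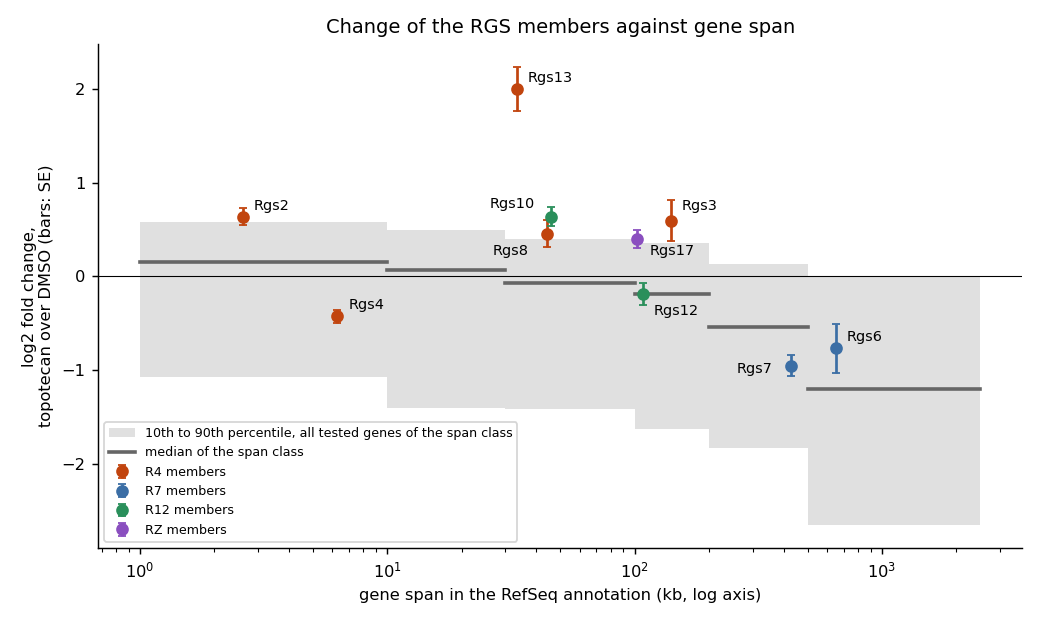
Log2 fold change (topotecan over DMSO, bars SE) of the 10 RGS members against the span of the gene in kb on a log axis. The grey area gives the 10th to 90th percentile and the dark line the median of all tested genes in the same class of span. Rgs6 and Rgs7 sit low at the long end. Rgs13, whose fold change chose the set, lies far above the area, and Rgs2, Rgs3, Rgs8, Rgs10 and Rgs17 lie above it too.

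Gene span, from start to end in the RefSeq annotation of GRCr8, played no part in the choice of members. It ran from 2.6 kb for Rgs2 and 6.29 kb for Rgs4 through 33.3 kb for Rgs13, 44.3 kb for Rgs8 and 45.9 kb for Rgs10 to 102 kb for Rgs17, 108 kb for Rgs12 and 140 kb for Rgs3. The R7 genes were far longer, with 430 kb for Rgs7 and 652 kb for Rgs6. Of the 5 members under 100 kb 4 were higher and 1 was lower, where 18.6% and 20.2% of all genes under 100 kb were higher and lower. Of the 5 longer ones 2 were higher and 2 lower, where the shares of all genes of 100 kb or more were 6.10% and 43.7%. The contrast chose the set, so nothing is read from these counts either. Spearman's rank correlation between span and log2 fold change was -0.56 over the 10 members, which share the same 4 libraries, and -0.28 over 11727 genes. The value over the members includes Rgs13, whose fold change chose the set. It is a description and is not read as a stronger trend than that over all genes. Set against all genes of like span, Rgs7 stood at -0.41 from the median of its class (-0.54 for 200 to 500 kb) on the log2 scale, and Rgs6 at 0.43 above the median of its own (-1.20 for 500 kb or more). In these classes 55.8% and 78.3% of genes were lower, so a lower value is common among genes as long as the R7 members. Rgs3 and Rgs17 were higher in a class of 100 to 200 kb in which 7.83% of genes were higher. Rgs4 was lower in the class under 10 kb, in which 15.6% of genes were lower and the median was 0.15. Rgs13 stood 2.07 above the median of its class, while Rgs10 stood 0.70, Rgs8 0.52 and Rgs2 0.48 above theirs. In the same terms Rgs3 stood 0.78 and Rgs17 0.59 above the median, Rgs12 stood at it and Rgs4 lay at -0.57 from it.

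RGS genes outside the set also held both directions. Of the 11 other Rgs symbols looked for, 9 had a row and 5 were tested. Of these 1 was higher and 2 were lower, where 16.2% and 23.5% of all genes were higher and lower. With 5 genes nothing is read from these counts. Rgs20, an RZ gene like Rgs17, had 16.5 and 13.2 CPM in topotecan and 54.1 and 53.1 CPM in DMSO, a log2 fold change of -1.85 (SE 0.13, edgeR adjusted p = 5.2e-08). Rgs19, the third RZ gene, was higher, with 74.7 and 82.0 CPM in topotecan and 63.2 and 50.2 CPM in DMSO (log2 fold change 0.46, SE 0.11, edgeR adjusted p = 0.0058). The RZ genes thus held both directions. Rgs20 spans 130 kb and Rgs19 8.45 kb, while Rgs17, which was higher, spans 102 kb. The part of span in these values was not tested.

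The R7 gene Rgs9, known for ending light responses in the retina and dopamine signals in the striatum, had 1.24 and 1.31 CPM in topotecan and 2.57 and 2.10 CPM in DMSO (log2 fold change -0.88, SE 0.28, edgeR adjusted p = 0.022). With DESeq2, without either topotecan library or without DMSO replicate 1 it did not pass. Rgs16, an R4 gene next to Rgs8 on the chromosome, had 3.23 and 4.28 CPM in topotecan and 2.54 and 3.30 CPM in DMSO, groups that overlapped. Rgs14, an R12 gene, had 3.46 and 3.45 CPM in topotecan, which lay between the DMSO values of 5.69 and 1.16 CPM, and its sign depended on which DMSO library was kept (1.59 without DMSO replicate 1 and -0.72 without DMSO replicate 2). Rgs1, Rgs5, Rgs18 and Rgs22 had at most 12 counts in any library and were not tested. Rgs5, a marker of pericytes, had 1 count in each topotecan library and 1 and 0 counts in the DMSO libraries. Of 5 tested markers of mural cells, the class of pericytes, 4 were lower, with summed levels of 3.26 and 2.58 CPM in topotecan and 20.4 and 18.5 CPM in DMSO. Most of that sum came from Cspg4, which also stands in the oligodendrocyte lineage list and had 2.28 and 1.94 CPM in topotecan and 13.5 and 11.6 CPM in DMSO.

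Of the 3 tested partners of the R7 proteins 2 were lower, where 23.5% of all genes were lower. Rgs7bp, the gene of the membrane anchor of R7 dimers, had 6.79 and 5.71 CPM in topotecan and 11.0 and 10.2 CPM in DMSO (log2 fold change -0.76, SE 0.16, edgeR adjusted p = 0.0022). Gpr158, an orphan receptor that recruits Rgs7 to the membrane, had 5.74 and 5.51 CPM in topotecan and 13.6 and 14.2 CPM in DMSO (log2 fold change -1.30, SE 0.15, edgeR adjusted p = 1.3e-05). Gnb5, the obligate beta subunit, had 43.2 and 47.0 CPM in topotecan and 41.3 and 36.7 CPM in DMSO, a log2 fold change of 0.21 (SE 0.11) that did not pass. It was 0.31 and passed without DMSO replicate 1. The spans were 97.9 kb for Rgs7bp, 467 kb for Gpr158 and 28.9 kb for Gnb5. In the span class of Rgs7bp (30 to 100 kb) 24.6% of genes were lower, and in that of Gpr158 (200 to 500 kb) 55.8%. Of the other partners Rgs9bp had no counts and Gpr179 at most 3 in a library.

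**Figure D3:**
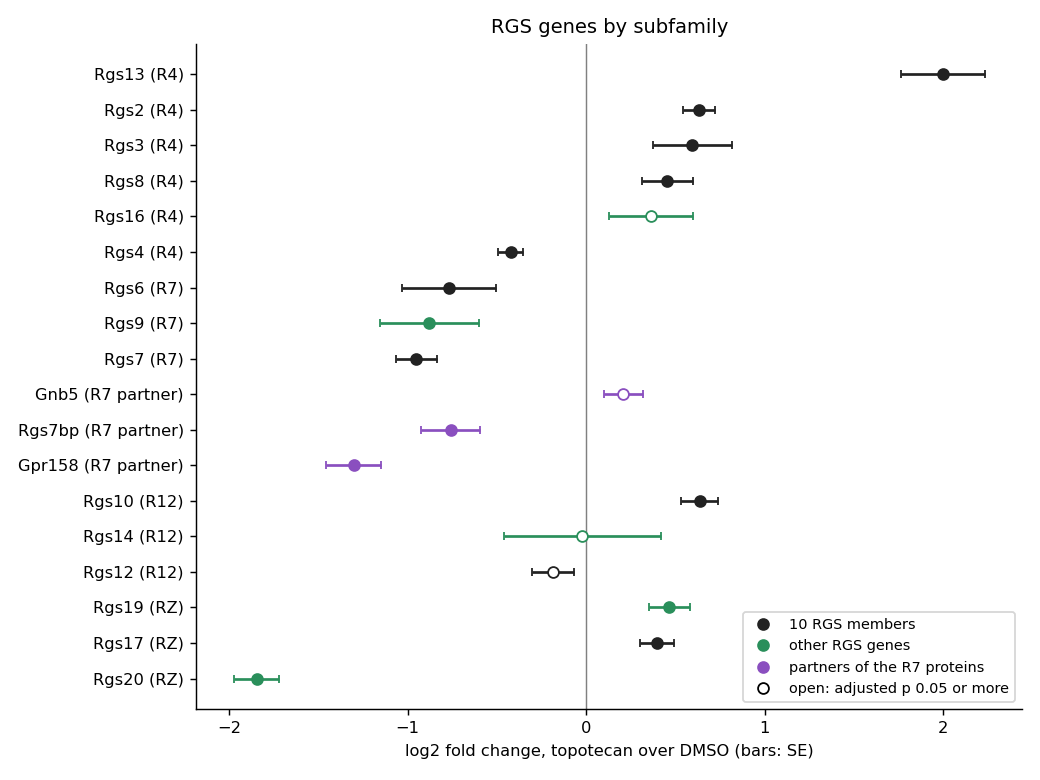
Log2 fold change (topotecan over DMSO, bars SE) of the RGS members (black), the other tested RGS genes (green) and the tested partners of the R7 proteins (purple), ordered by subfamily. Filled points had an adjusted p under 0.05. All 3 tested R7 genes lie below 0, and the RZ genes lie on both sides, with Rgs20 at -1.85 and Rgs19 at 0.46.

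Some RGS genes are neighbours on chromosome 13 of GRCr8, by the order of protein-coding genes in the RefSeq table. Rgs13 lies next to Rgs2, and both were higher in topotecan. Rgs1, on the other side of Rgs13, had no counts in topotecan and 0 and 4 counts in DMSO, and Uchl5, on the other side of Rgs2, stood at -0.11 (SE 0.11, log2 scale) and did not pass. Rgs4 lies next to Rgs5, which was near 0 in all libraries. Rgs8 lies next to Rgs16. Among neighbours that are no RGS gene, Ahsp beside Rgs10 was lower (log2 fold change -2.72, SE 0.40, edgeR adjusted p = 0.00012), while Zfp618 beside Rgs3, Sipa1l1 beside Rgs6, Npl beside Rgs8, Tial1 beside Rgs10 and Mtrf1l beside Rgs17 did not pass. The sources used here do not say whether counting used the strand, so reads of overlapping genes could be shared.

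The genes whose profile over the 4 libraries lay nearest to that of Rgs13, by Euclidean distance of centred log2 CPM, were Oma1, Bmp3, Fam221a, Lypd5 and Igf1. The search took in 8634 genes whose mean log2 CPM reached 2, and the distances ran from 0.56 for Oma1 to 0.73 for Igf1. Oma1, a protease of the inner mitochondrial membrane, had 54.1 and 53.4 CPM in topotecan and 13.3 and 12.5 CPM in DMSO. Bmp3, a secreted protein of the bone morphogenetic family, had 6.26 and 5.67 CPM in topotecan and 1.89 and 2.48 CPM in DMSO. With 4 libraries in 2 groups such a profile holds little more than the group difference.

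Calls among other genes of G protein signalling went in both directions, with more falls than rises. Of 137 symbols in 9 lists of G protein signalling genes, the other RGS genes and R7 partners included, 123 had a row and 103 were tested. Of these 12 were higher (11.7%) and 31 were lower (30.1%), against 16.2% and 23.5% of all genes. The count of higher genes was 6 with the pan-neuronal scaling, 7 without topotecan replicate 2 and 19 without DMSO replicate 1. Of the 34 tested genes of 100 kb or more 19 were lower and 2 higher, and of the 69 shorter ones 12 were lower and 10 higher. Among all genes of 100 kb or more 43.7% were lower and 6.10% higher, and among all shorter genes 20.2% and 18.6%.

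Of 11 tested alpha subunit genes 3 were lower (27.3%) and none was higher, against 23.5% and 16.2% of all genes. The share of lower genes was thus near that of all genes. Gnai2, an alpha subunit that inhibits adenylyl cyclase and is a substrate of many RGS proteins, had 40.3 and 47.2 CPM in topotecan and 73.2 and 67.7 CPM in DMSO (log2 fold change -0.69, SE 0.11, edgeR adjusted p = 0.00018). Gnao1, the abundant Go subunit of neurons, had 160 and 162 CPM in topotecan and 194 and 211 CPM in DMSO (log2 fold change -0.33, SE 0.08, edgeR adjusted p = 0.0057), and did not pass without topotecan replicate 1. Gna12, of a class that acts on the cytoskeleton, was also lower (log2 fold change -0.50, SE 0.09, edgeR adjusted p = 7.1e-04). The Gq gene Gnaq, substrate of Rgs2, had 7.5 and 9.60 CPM in topotecan and 10.3 and 10.7 CPM in DMSO, and did not pass. Gnas, the stimulatory subunit that RGS proteins of these subfamilies leave alone, had 180 CPM in each topotecan library and 170 and 164 CPM in DMSO under 1 of its identifiers, and did not pass.

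Of 12 beta and gamma subunit genes 2 were higher and 1 was lower (16.7% and 8.33%), against 16.2% and 23.5% of all genes. Gng10 had 427 and 408 CPM in topotecan and 328 and 305 CPM in DMSO (log2 fold change 0.40, SE 0.08, edgeR adjusted p = 9.7e-04). Gnb2 was higher by 0.50 (SE 0.19, edgeR adjusted p = 0.049), but the call was lost in 6 of the 13 alternatives. These were total counts, the pan-neuronal scaling, the CPM filter, DESeq2 and the fits without topotecan replicate 2 or without DMSO replicate 2, the last of which gave 0.23. Gng12 had 0.196 and 0.159 CPM in topotecan and 12.7 and 13.4 CPM in DMSO, a log2 fold change of -6.15 (SE 0.27, edgeR adjusted p = 4.5e-10). The astrocyte and oligodendrocyte marker sums given above were lower in the same libraries, and their part in the Gng12 value was not tested.

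Of 11 genes that carry an RGS domain outside the RGS-named family, 2 were higher and 1 was lower (18.2% and 9.09%). Of all genes 16.2% were higher and 23.5% lower. Grk2, a kinase that desensitises receptors, was higher by 0.38 (SE 0.12, edgeR adjusted p = 0.024) and Arhgef12, an exchange factor that binds alpha subunits, by 0.46 (SE 0.12, edgeR adjusted p = 0.0089). Neither passed when libraries were scaled to short pan-neuronal genes or when topotecan replicate 1 was left out, and Grk2 did not pass without topotecan replicate 2. Snx13, a sorting nexin, was lower, at -0.68 (SE 0.14, edgeR adjusted p = 0.0016). Of 8 other regulators of alpha subunits Gpsm2, which orients the mitotic spindle and holds alpha subunits in the GDP form, was lower, at -1.92 (SE 0.21, edgeR adjusted p = 5.7e-06), and the other 7 did not pass.

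Of 11 effector genes 5 were lower and none was higher, against 23.5% and 16.2% of all genes. All 5 span 100 kb or more, as did 9 of the 11 tested. Of all genes of that span 43.7% were lower and 6.10% higher, so a lower value is common among them. Plcb1, the phospholipase switched on by Gq, had 9.69 and 11.2 CPM in topotecan and 30.2 and 34.4 CPM in DMSO (log2 fold change -1.63, SE 0.14, edgeR adjusted p = 4.2e-07). The adenylyl cyclase genes Adcy8 and Adcy2 had log2 fold changes of -1.63 (SE 0.19, edgeR adjusted p = 1.1e-05) and -0.94 (SE 0.12, edgeR adjusted p = 2.6e-05).

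Of 24 tested genes for receptors coupled to Gi or Go 5 were higher and 5 lower (20.8% each). Among all genes 16.2% were higher and 23.5% lower. The somatostatin receptor gene Sstr2 had 48.9 and 52.9 CPM in topotecan and 30.9 and 31.3 CPM in DMSO (log2 fold change 0.71, SE 0.11, edgeR adjusted p = 1.2e-04). Sstr1 (0.78, SE 0.21, edgeR adjusted p = 0.0095) and the neuropeptide Y receptor gene Npy1r (0.35, SE 0.09, edgeR adjusted p = 0.0095) were also higher, and neither passed without topotecan replicate 2. Npy1r did not pass with the pan-neuronal scaling either. The metabotropic glutamate receptor genes Grm3 and Grm7 were lower, at -1.81 (SE 0.13, edgeR adjusted p = 7e-08) and -1.44 (SE 0.15, edgeR adjusted p = 4.5e-06). S1pr1, a receptor for a sphingolipid, had 0.881 and 0.674 CPM in topotecan and 162 CPM in each DMSO library.

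Of 18 genes for receptors coupled to Gq 11 were lower and 2 higher (61.1% and 11.1%), against 23.5% and 16.2% of all genes. Of the 6 that span 100 kb or more 5 were lower, where 43.7% of all such genes were lower. Of the 12 shorter ones 6 were lower and 2 higher, where the shares of all shorter genes were 20.2% and 18.6%. The neurotensin receptor gene Ntsr1 had 14.7 and 14.3 CPM in topotecan and 8.63 and 6.34 CPM in DMSO (log2 fold change 0.95, SE 0.17, edgeR adjusted p = 4.9e-04). The serotonin receptor genes went apart, with Htr2a at 0.81 (SE 0.17, edgeR adjusted p = 0.0022) and Htr2c at -1.91 (SE 0.25, edgeR adjusted p = 4e-05). The endothelin receptor gene Ednrb had 5.06 and 3.73 CPM in topotecan and 186 and 205 CPM in DMSO, and the histamine receptor gene Hrh1 0.294 and 0.317 CPM in topotecan and 4.71 and 4.41 CPM in DMSO. Some of the receptors of both lists, S1pr1, Ednrb and Hrh1 among them, are also known from glia. The astrocyte and oligodendrocyte sums were lower in topotecan too, and their part in the values of any receptor gene was not tested. Of the 10 tested interneuron markers 4 were higher and 4 lower. Their summed level was 598 and 548 CPM in topotecan and 438 and 405 CPM in DMSO. Sst had the most counts over all libraries together. The largest count of a single marker was 10274 and 7985 in topotecan and 4929 and 3717 in DMSO, where it was that of Gad1. Gad1 itself was lower in topotecan (log2 fold change -0.43, SE 0.09). The sum thus leans on single abundant markers and does not stand for the list.

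**Figure D4:**
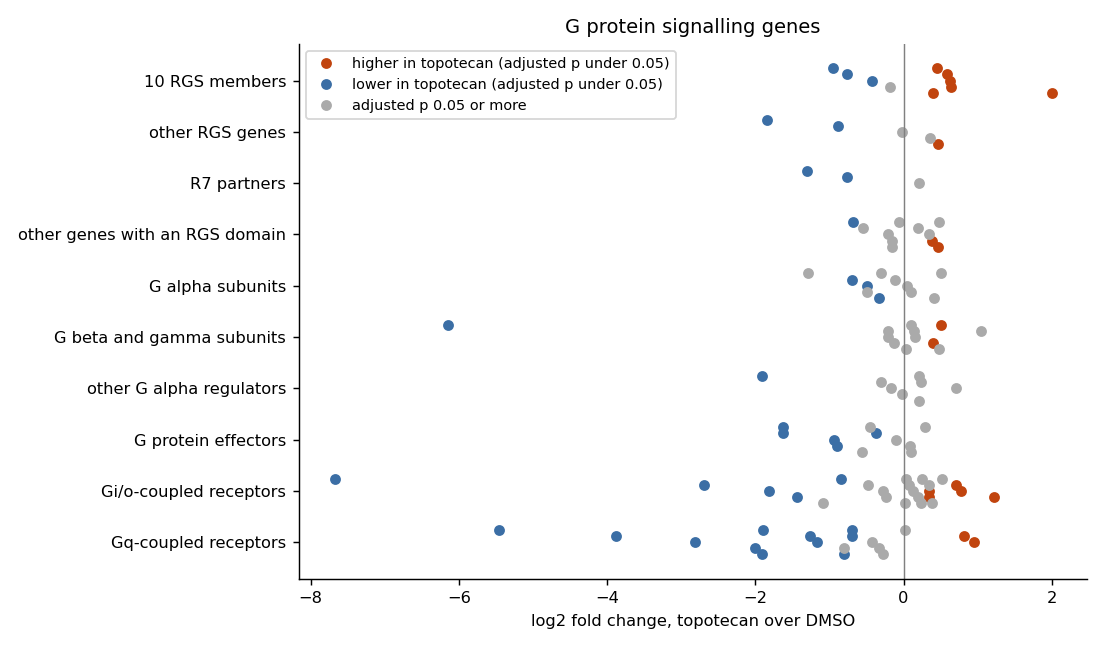
Log2 fold change (topotecan over DMSO) of every tested gene in the RGS set and in 9 lists of G protein signalling genes, 1 point per gene. Orange points were higher and blue points lower at an adjusted p under 0.05. Effectors and Gq-coupled receptors lie mostly below 0, and the lowest point is S1pr1 at -7.68.

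**Figure D5:**
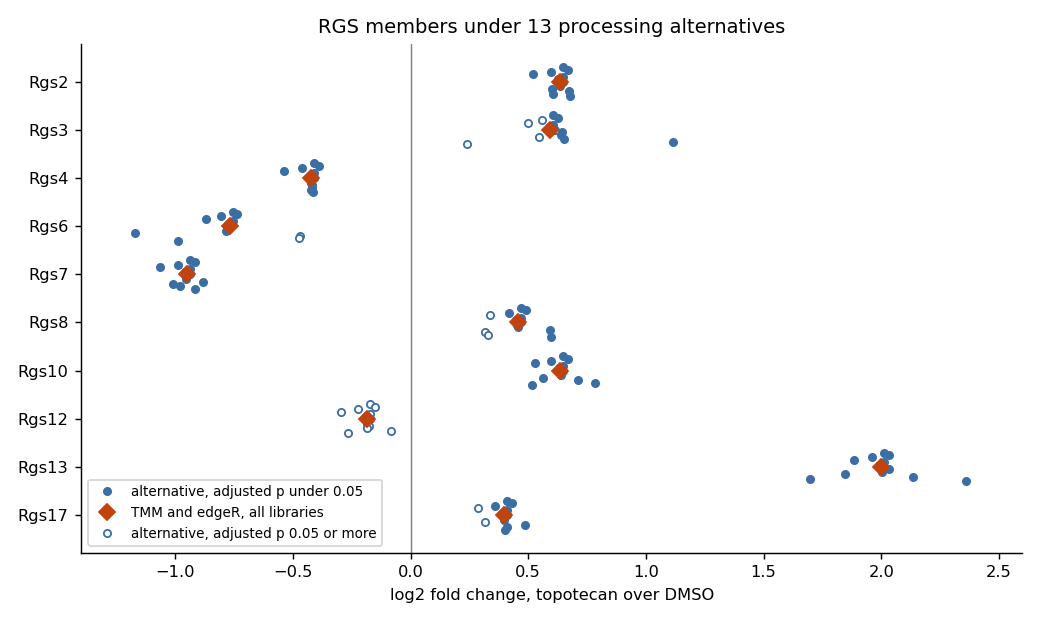
Log2 fold change (topotecan over DMSO) of the 10 RGS members in the fit reported here (diamonds) and under 13 alternatives of scaling, filter, tool, pairing and left-out library (circles, open where the adjusted p was 0.05 or more). Each member stayed on its side of 0 in all 13, and the widest ranges belong to Rgs3, Rgs6 and Rgs13.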

How the data were processed

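RNA of 4 libraries was read from 1 table of whole-number gene counts that the authors deposited, with Ensembl identifiers and symbols. STAR and edgeR are listed, without versions, per the submitters' processing notes. The sources used here give no genome build, annotation, counting tool or strand setting. The library kit was one for small RNA per the labels. Groups came from the sample titles.

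The table's 22641 rows held 21648 identifiers, and 792 that stood on several rows with equal counts were used once. 14 rows had no gene name. The members and gene lists were chosen with earlier results of these data known. The test was edgeR 4.0.16 (R 4.3.3), quasi-likelihood, with treatment as the only term, TMM scaling and filterByExpr (minimum count 10, minimum total 15), which kept 12162 genes, with 2 degrees of freedom left for the spread. Adjustment ran over all genes kept (Benjamini-Hochberg). The SE is the log2 fold change over the square root of F. The script was tested on simulated data. Replicates differed by more than sampling noise (chi-square per degree of freedom 9.34 in topotecan and 13.0 in DMSO). Alternatives used DESeq2 1.42.0, limma-voom (limma 3.58.1), other scalings, filters, left-out libraries and a replicate block.

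Spans were found for 11727 tested genes, by Entrez number or symbol. Named genes are the members, the other RGS genes and R7 partners, up to 3 genes with the smallest p in each direction of every other list, 5 subunit genes given whatever their result (Gnai2, Gnao1, Gnaq, Gnas, Gnb5), neighbours of the members and the 5 genes nearest to Rgs13. All 10 members matched a promoter window. Some symbols of the lists had no row and were not analysed here, and 1 neighbour of a member is not reported here.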

Additional observations from a re-analysis of the deposited data

How the results depend on the processing

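Under the 13 alternatives the 10 RGS members kept their sign. Scaling to short pan-neuronal genes lowered the count of higher genes to 876, of higher members to 3 and of higher signalling genes to 6, and the cause was not tested. Leaving out 1 library at a time gave 1208 to 2470 higher genes and 2336 to 2910 lower ones, 4 to 5 higher and 2 to 3 lower members, and 7 to 19 higher and 27 to 32 lower signalling genes. The lowest of these counts of higher genes, 1208 and 1260, came without topotecan replicate 1 and replicate 2. The higher signalling genes numbered 7 without topotecan replicate 2 and 19 without DMSO replicate 1. These fits hold a single library in 1 group, which is assumed to vary like the other group.

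Rgs14, which did not pass, had a log2 fold change of -0.02 and turned to 0.0072 with upper-quartile factors, 0.0224 with DESeq2, 0.34 with limma-voom, 0.17 with the replicate block and 1.59 without DMSO replicate 1, where it passed, while it was -0.72 and passed without DMSO replicate 2. Gnas turned to -0.0054 under the pan-neuronal scaling. Deviations of same-numbered libraries correlated at -0.07 across genes, so the numbers are not known to pair the libraries. With the replicate block 1822 genes were higher and 2746 lower, with 6 and 3 members and 12 and 29 signalling genes. Rgs6 had at most 136 counts in a library, and other RGS genes under the low-count filter could not be tested at this depth.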
